A study of Mus musculus with 6 samples.

Results

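The cardiac transcription factors examined here are the products of 10 genes, *Gata4*, *Gata6*, *Nkx2-5*, *Tbx5*, *Tbx20*, *Mef2a*, *Mef2c*, *Mef2d*, *Hand2* and *Irx4*. They were taken from the array annotation as every probe that carried one of these symbols, which gave 22 of the 56605 non-control probes and 10 of the 27307 gene symbols on the array. Of the 22 probes, 19 gave a signal well above background in every array of either group or both and were tested, and these covered all 10 genes. The levels are normalized log2 signals, so a difference of 1 is a 2-fold change. A level depends on the probe as well as on the RNA, so no level of a probe was set against that of another probe.

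The samples were myocardium of 6 male C57BL/6J mice, all *Clk4*-cKO: the *Clk4* gene, which encodes CDC-like kinase 4, was floxed (*Clk4* fl/fl) and *α-MHC-MerCreMer* supplied a tamoxifen-inducible Cre recombinase under a cardiomyocyte promoter. Of these, 3 received AAV NEXN-WT, which carries the unaltered actin-binding protein nexilin, and 3 received AAV NEXN-S437E, in which glutamate stands in for a serine and mimics its phosphorylated form. The virus was of serotype 9 with a CMV promoter, which is not restricted to cardiomyocytes. The age of the mice is not stated in the labels, and mice without either virus or with intact *Clk4* were not analysed here.

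These factors form the core of the transcriptional programme of heart muscle. GATA4 and GATA6 are zinc-finger proteins, NKX2-5 is a homeodomain protein, TBX5 and TBX20 are T-box proteins, MEF2A, MEF2C and MEF2D are MADS-box proteins, HAND2 is a basic helix-loop-helix protein, and IRX4 is an Iroquois homeodomain protein of the ventricle. They bind near one another at genes for contractile proteins, ion channels and natriuretic peptides, and GATA4 and the MEF2 proteins are known for relaying hypertrophic signals in the adult heart. Much of that relay runs through phosphorylation, nuclear export of class II histone deacetylases and cofactor binding, none of which an RNA array measures.

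The labels were checked first. The *Clk4* probe A_52_P445387 read 8.89, 8.47 and 8.63 with NEXN-WT against 8.81, 8.50 and 8.95 with NEXN-S437E, and it was not placed in an exon, so it does not show whether the floxed part was present. The *Esr1* probe A_55_P2030883, for the estrogen receptor gene whose ligand-binding domain, in mutated form, is part of MerCreMer, read 10.63, 13.24 and 12.54 on the NEXN-WT arrays, while no NEXN-S437E array read it well above background. Its signal was at least 276-fold lower there (adjusted p = 0.00154, limma with Benjamini-Hochberg adjustment). It was tested through the group where it was high, so this p adds no support to the difference. A difference of this size belonged to this probe and not to every *Esr1* probe. A_52_P237077 differed by −1.07 and A_65_P17231 by −0.64 (adjusted p = 0.192 and 0.351, limma), and both were tested in the same way. The remaining *Esr1* probes were well above background on no array. Where A_55_P2030883 lies in the gene, and so whether it reads the transgene, was not determined. If it does, its values go against a MerCreMer transgene shared by all 6 hearts. NEXN-WT and NEXN-S437E below are the labels of the arrays, and every direction is a difference between arrays labelled that way. The array labelled NEXN-WT 1 stood apart from the others: its mean absolute log2 difference from the other NEXN-WT arrays was 0.374 and 0.419, against 0.24 between those 2 arrays and 0.192 to 0.295 among the NEXN-S437E arrays. Markers of cell types differed as well. In a list of 15 tested fibroblast probes, 14 were lower on the NEXN-S437E arrays at an unadjusted p under 0.05, beside 8.12% of all tested probes, and 0 passed the adjusted threshold. The mean of the list ranged from 10.24 to 11.94 on the NEXN-WT arrays, highest on NEXN-WT 1, and from 9.02 to 9.27 on the NEXN-S437E arrays. The mean of the 22 tested cardiomyocyte probes ranged from 11.90 to 12.14 and from 12.11 to 12.25, and that of 7 T cell probes from 5.74 to 6.41 and from 3.75 to 4.39. Of the T cell probes 3 passed the adjusted threshold, as did the tested B and plasma cell probe, *Jchain*, beside 0.122% of all tested probes. Of these lists, 2 fibroblast probes, 3 T cell probes and the *Jchain* probe were well above background on every NEXN-WT array but not on every NEXN-S437E array, so they were tested through the group where they were high. The share of spots well above background ran from 41.9% to 47.8% over the arrays.

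**Figure D1:**
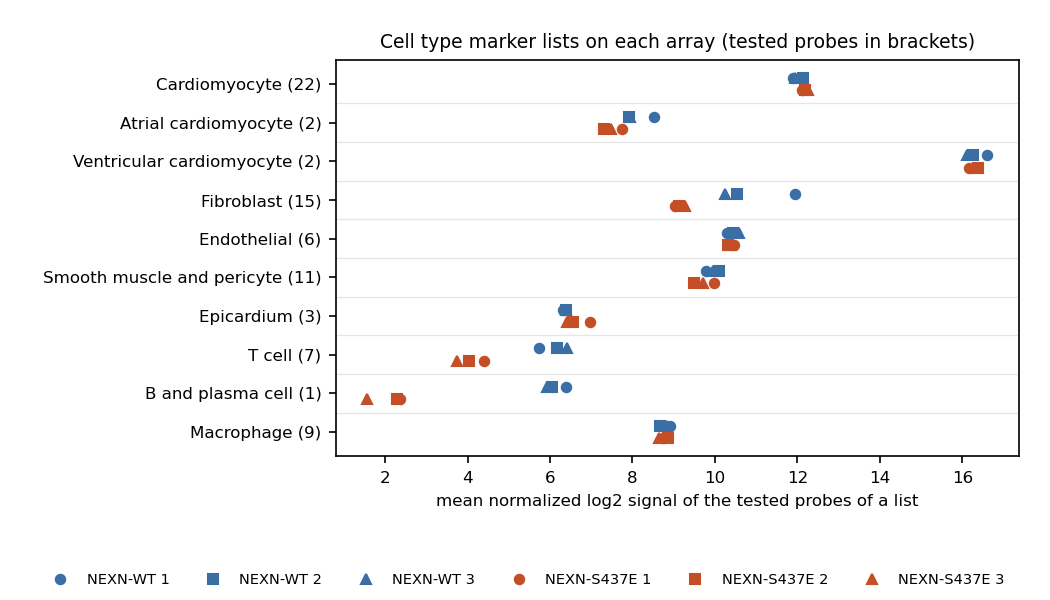
Mean normalized log2 signal of the tested probes of each cell type marker list (horizontal axis) on each of the 6 arrays, NEXN-WT in blue and NEXN-S437E in orange, with 1 symbol shape per replicate number. The fibroblast means run from 10.24 to 11.94 with NEXN-WT and from 9.02 to 9.27 with NEXN-S437E, whereas the endothelial means (10.29 to 10.58 and 10.31 to 10.45) and the macrophage means (8.67 to 8.91 and 8.65 to 8.86) overlap.

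RNA for the 10 factors was present in both groups at levels that mostly overlapped. With NEXN-S437E, 8 of the 19 tested probes had a lower mean and 11 a higher mean, no probe differed by 2-fold, and the median difference was 0.08 on the log2 scale, beside 0.02 over all 22998 tested probes. At an unadjusted p under 0.05, 2 of the 19 probes were lower and 0 higher, both of them *Tbx20* probes, and in all tested probes the shares were 8.12% lower and 7.65% higher. After adjustment over all tested probes no member passed 0.05, with a lowest adjusted p of 0.269 (limma), where 0.122% of all tested probes passed. The groups did not overlap for the same 2 *Tbx20* probes, both lower, against 11.7% of all tested probes without overlap and lower and 13.3% without overlap and higher. The share of members that were lower at the unadjusted threshold, 10.5%, was thus near that of the array as a whole, and the share that were higher, 0%, was below it. The background of 7.65% higher amounts to few probes in a list of this size. The 95% interval of the difference held 0 for the other 17 probes, and for 14 of the 19 it lay within a 2-fold change either way.

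**Figure D2:**
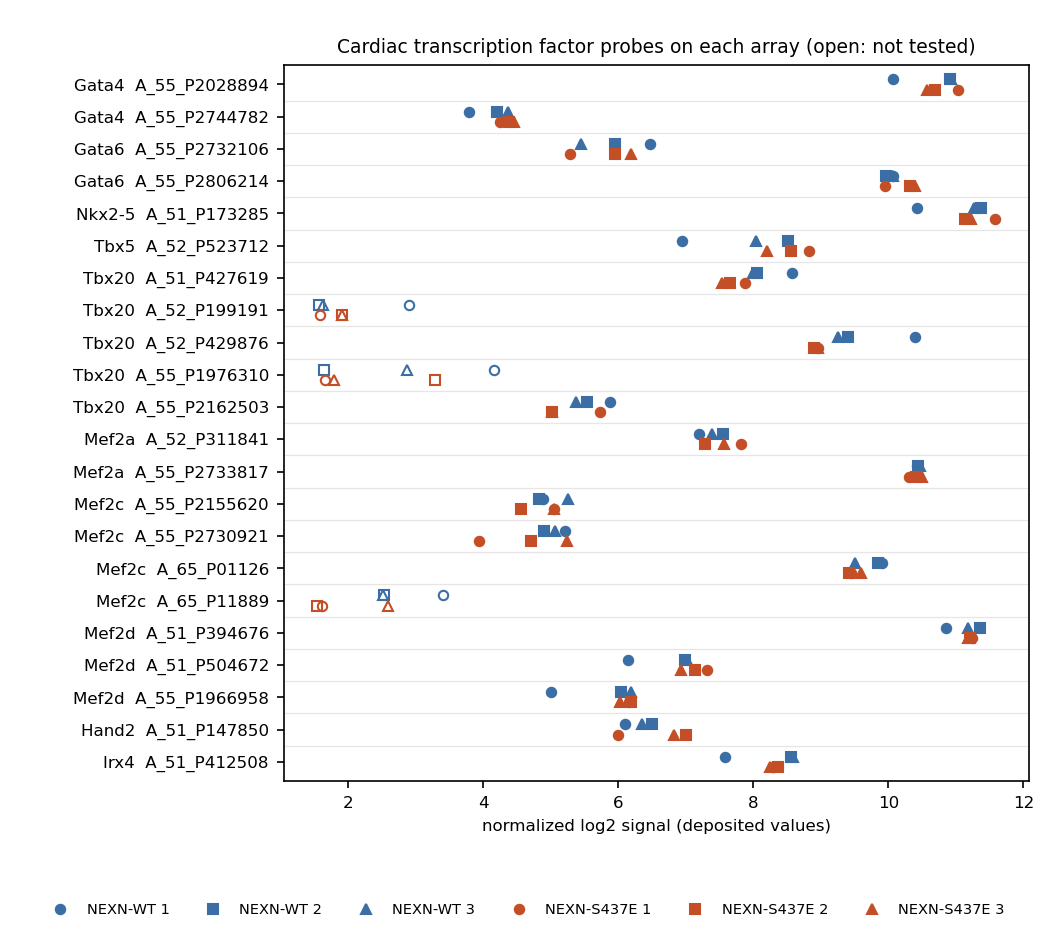
Normalized log2 signal (horizontal axis) of each of the 22 probes of the 10 factors on each array, NEXN-WT in blue above and NEXN-S437E in orange below, with open symbols for the 3 probes that were too dim to be tested. The *Tbx20* probes A_52_P429876 and A_51_P427619 are the only tested rows in which all orange symbols lie to the left of all blue symbols, and the blue circle of NEXN-WT 1 lies at the left end of 9 tested rows.

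*Tbx20*, which encodes a T-box factor that both activates and represses genes in the developing and adult myocardium, had the largest difference of the 10 genes with the deposited values. *Tbx5* differed by more with the 75th percentile of all probes (0.71 against −0.68), with the slide row as a block (1.00 against −0.72), without NEXN-WT 2 (1.04 against −0.89) and without NEXN-S437E 3 (0.86 against −0.75), and *Mef2c* by more with the slide row block. The probe A_52_P429876, on chromosome 9 of mm9 from 24527750 to 24527809, read 10.40, 9.40 and 9.25 with NEXN-WT against 8.96, 8.89 and 8.95 with NEXN-S437E. The 3 NEXN-S437E values lay close together and below every NEXN-WT value, and NEXN-WT 1 stood about a log2 unit above the rest of its group. The difference was −0.74 (standard error 0.29, unadjusted p = 0.0361, adjusted p = 0.289, limma), a 1.67-fold lower mean. Without NEXN-WT 1 the difference was −0.39 (unadjusted p = 0.0156), and leaving out any single NEXN-S437E array raised the unadjusted p to between 0.0695 and 0.0797.

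The second probe of the same transcript, A_51_P427619, from 24526210 to 24526269, read 8.57, 8.05 and 8.0 with NEXN-WT against 7.87, 7.65 and 7.54 with NEXN-S437E. Again no values overlapped, and the gap between NEXN-WT 3 and NEXN-S437E 1 was small. The difference was −0.52 (standard error 0.19, unadjusted p = 0.0290, adjusted p = 0.269, limma). It was −0.34 without NEXN-WT 1 (unadjusted p = 0.0528), and the unadjusted p was 0.0743 without NEXN-S437E 2 and 0.0964 without NEXN-S437E 3.

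The third tested probe, A_55_P2162503, is annotated to another *Tbx20* transcript and lies from 24563177 to 24563236. It read 5.88, 5.54 and 5.37 with NEXN-WT against 5.72, 5.01 and 5.02 with NEXN-S437E, with NEXN-S437E 1 inside the NEXN-WT range. Its difference of −0.35 had a 95% interval from −0.90 to 0.21 (unadjusted p = 0.182). It was −0.58 without NEXN-S437E 1 (unadjusted p = 0.0210), −0.44 with array weights (unadjusted p = 0.0249) and −0.21 without NEXN-WT 1. The other 2 *Tbx20* probes were at background: A_55_P1976310 was well above it on 1 NEXN-WT array, and A_52_P199191 on none.

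The *Tbx20* differences over all arrays thus had the same sign, but none passed the adjusted threshold, and over the alternatives tried the adjusted p ranged from 0.101 to 0.597 for A_52_P429876 and from 0.0686 to 0.654 for A_51_P427619. The arrays lay in 2 rows of the slide, of which the first held the 3 NEXN-WT arrays and NEXN-S437E 1. Within that row the differences of these probes were −0.72 and −0.33 (unadjusted p = 0.159 and 0.261, limma with the row as a block), and that of A_55_P2162503 was 0.12. On the array with the highest *Tbx20* signals, NEXN-WT 1, the fibroblast list was also at its highest, and its part in the *Tbx20* difference was not tested. In tissue RNA, fewer cells of a type and less RNA per cell cannot be told apart.

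**Figure D3:**
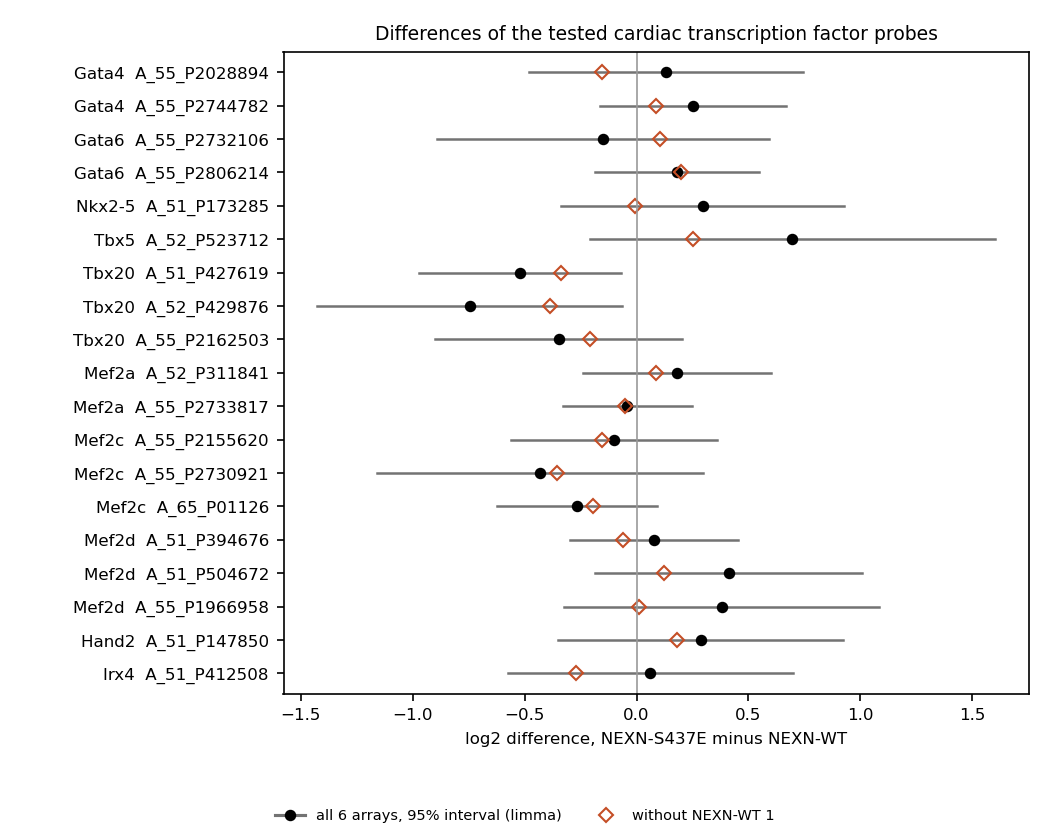
Difference of the group means, NEXN-S437E minus NEXN-WT, in log2 units (horizontal axis) for each of the 19 tested probes of the 10 factors, with black points and bars for all 6 arrays and their 95% interval from limma, and open diamonds for the difference without NEXN-WT 1. The interval leaves out 0 only for *Tbx20* A_52_P429876 (−0.74) and A_51_P427619 (−0.52), and 14 of the 19 diamonds lie closer to 0 than their points.

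*Tbx5*, the T-box partner of GATA4 and NKX2-5, had the largest higher mean with the deposited values. Its probe A_52_P523712, on chromosome 5 of mm9 from 120334087 to 120334146, read 6.94, 8.51 and 8.04 with NEXN-WT against 8.83, 8.55 and 8.20 with NEXN-S437E. The NEXN-S437E values lay around and just above those of NEXN-WT 2 and 3, and NEXN-WT 1 was more than a log2 unit below every other array. The difference of 0.70 had a 95% interval from −0.21 to 1.60 (unadjusted p = 0.113, adjusted p = 0.419, limma), and without NEXN-WT 1 it was 0.25. Without NEXN-WT 2 it was 1.04, with an unadjusted p of 0.0270.

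*Nkx2-5*, a homeodomain factor of the cardiac lineage, was read by 1 probe, A_51_P173285, on chromosome 17 of mm9 from 26975621 to 26975680. It read 10.42, 11.37 and 11.27 with NEXN-WT against 11.58, 11.14 and 11.22 with NEXN-S437E. All arrays other than NEXN-WT 1 lay within the same narrow range, and the groups overlapped. The difference was 0.30 with a 95% interval from −0.34 to 0.93 (adjusted p = 0.613, limma), and it vanished to −0.005 without NEXN-WT 1.

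*Gata4*, which encodes a zinc-finger factor required for the hypertrophic response, was read by a pair of probes. The probe A_55_P2028894, on chromosome 14 of mm9 from 63817858 to 63817917, read 10.06, 10.91 and 10.93 with NEXN-WT against 11.03, 10.69 and 10.57 with NEXN-S437E. Its difference of 0.13 had a 95% interval from −0.48 to 0.74 and turned to −0.16 without NEXN-WT 1. The other probe, A_55_P2744782, from 63860003 to 63860062, read 3.78, 4.20 and 4.36 against 4.25, 4.38 and 4.46. Its difference of 0.25 had a 95% interval from −0.16 to 0.67 and was 0.09 without NEXN-WT 1.

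*Gata6*, a close relative of *Gata4* with overlapping roles in heart muscle, also had 2 tested probes. A_55_P2806214 read 10.07, 9.97 and 10.07 with NEXN-WT against 9.95, 10.32 and 10.39 with NEXN-S437E, so that 2 of the NEXN-S437E values were above and 1 below the NEXN-WT range. Its difference was 0.18 with a 95% interval from −0.19 to 0.55. It was 0.33 with array weights (unadjusted p = 0.0235, limma), 0.32 without NEXN-S437E 1 and 0.0951 without NEXN-S437E 3. The probe A_55_P2732106 had the opposite sign, −0.15 with an interval from −0.89 to 0.59, and its NEXN-WT values alone ran from 5.45 to 6.47.

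The MEF2 genes encode the MADS-box factors that class II histone deacetylases hold in check. *Mef2c* means were lower at its 3 tested probes, although 1 of them turned to 0.01 with normexp background correction. The probe A_65_P01126, on chromosome 13 of mm9 from 83803888 to 83803947, read 9.90, 9.85 and 9.51 with NEXN-WT against 9.44, 9.41 and 9.60 with NEXN-S437E. The groups overlapped through NEXN-S437E 3, and the difference was −0.27 with a 95% interval from −0.62 to 0.09 (unadjusted p = 0.121, limma). A_55_P2730921 read 5.21, 4.90 and 5.06 with NEXN-WT against 3.93, 4.70 and 5.24 with NEXN-S437E, so the NEXN-S437E arrays lay on both sides of the others. It was the 1 factor probe tested through NEXN-WT alone, since NEXN-S437E 1 did not read it well above background. Its difference of −0.43 had a 95% interval from −1.16 to 0.30 and depended on the array and the setting: it was −1.13 with the slide row as a block, which leaves that array alone against the NEXN-WT arrays, −0.74 without NEXN-S437E 3 (unadjusted p = 0.0258), −0.0857 without NEXN-S437E 1 and −0.00711 with array weights. A_55_P2155620 differed by −0.10, and A_65_P11889 stayed at background throughout.

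*Mef2d* means were higher at its 3 probes with the deposited values, and 1 of them turned without NEXN-WT 1. The probe A_51_P394676, on chromosome 3 of mm9 from 87975777 to 87975836, read 10.85, 11.36 and 11.18 with NEXN-WT against 11.24, 11.21 and 11.18 with NEXN-S437E, a difference of 0.08 with a 95% interval from −0.30 to 0.45 that became −0.06 without NEXN-WT 1. The other 2 probes, A_51_P504672 and A_55_P1966958, differed by 0.41 and 0.38, and by 0.12 and 0.01 without NEXN-WT 1. On all 3 probes NEXN-WT 1 was the lowest array.

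*Mef2a* had a probe with little spread between arrays. This probe, A_55_P2733817, on chromosome 7 of mm9 from 74376810 to 74376869, read 10.42, 10.44 and 10.47 with NEXN-WT against 10.31, 10.41 and 10.49 with NEXN-S437E. The difference of −0.04 had a 95% interval from −0.33 to 0.25, so a 2-fold change lay outside it. The second *Mef2a* probe, A_52_P311841, differed by 0.18 with an interval from −0.24 to 0.60.

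*Hand2* and *Irx4* were each read by 1 probe. *Hand2*, which acts with GATA4 in the right ventricle, was read by A_51_P147850, on chromosome 8 of mm9, at 6.10, 6.50 and 6.35 with NEXN-WT against 5.99, 7.0 and 6.82 with NEXN-S437E. The NEXN-S437E arrays were more scattered than the NEXN-WT arrays, NEXN-S437E 1 being the lowest of all 6, and the difference of 0.29 had a 95% interval from −0.35 to 0.92. It was 0.60 without NEXN-S437E 1 (unadjusted p = 0.0139) and 0.0889 without NEXN-S437E 2. *Irx4*, which keeps the ventricular programme apart from the atrial, was read by A_51_P412508, on chromosome 13 from 73406712 to 73406771, at 7.58, 8.56 and 8.58 with NEXN-WT against 8.29, 8.37 and 8.24 with NEXN-S437E. Its difference was 0.06 (95% interval from −0.58 to 0.70), and −0.27 without NEXN-WT 1 (unadjusted p = 0.0539).

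A feature shared by many of these probes was thus the place of 1 array. NEXN-WT 1 was the lowest of the 6 arrays for 9 of the 19 tested probes (47.4%), those of *Gata4*, *Nkx2-5*, *Tbx5*, *Mef2d* and *Irx4* and 1 of *Mef2a*, and the highest for 5 (26.3%), among them the 3 tested *Tbx20* probes. Over all tested probes NEXN-WT 1 was the lowest for 34.7% and the highest for 27.6%. Without it, 14 of the 19 differences were smaller and 5 changed sign. Of the 6 genes with a higher mean at every tested probe, *Nkx2-5* and *Irx4* had a lower mean without that array.

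The partners and cofactors of these factors were read from a list of 49 genes on the array, of which 70 probes of 43 genes were tested. At an unadjusted p under 0.05, 6 probes (8.57%) were lower and 3 (4.29%) higher with NEXN-S437E, beside 8.12% and 7.65% of all tested probes. The lower share was close to that background and the higher one below it. None passed the adjusted threshold, where 0.122% of all tested probes did. *Nfatc4*, a calcineurin-dependent factor that binds with GATA4, was the one with the smallest p. Its probe A_52_P342159, on chromosome 14 of mm9 from 56452542 to 56452601, read 8.33, 8.29 and 8.10 with NEXN-WT against 7.43, 7.45 and 7.37 with NEXN-S437E. The values within each group lay close together with a clear gap between the groups, and the difference was −0.82 (standard error 0.13, unadjusted p = 0.000284, adjusted p = 0.0963, limma). It was −0.78 without NEXN-WT 1. The second *Nfatc4* probe, A_55_P2745072, was well above background on every NEXN-WT array but on only 1 NEXN-S437E array, so that it was tested through the group where it was high, and its measured difference was −0.40.

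*Rcan1*, a calcineurin inhibitor whose own gene responds to NFAT, read 12.52, 12.05 and 12.16 with NEXN-WT against 11.68, 11.70 and 11.65 with NEXN-S437E, a difference of −0.56 (unadjusted p = 0.00801, adjusted p = 0.189, limma). *Tbx18*, a T-box gene of epicardial and mural cells, differed by −0.61 (unadjusted p = 0.0114), *Wwtr1*, which encodes the coactivator TAZ, by −0.34 (unadjusted p = 0.0268), and 1 probe of *Camk2d*, a kinase that acts on class II histone deacetylases, by −0.39 (unadjusted p = 0.0431, and 0.0726 without NEXN-WT 1). The other 3 tested *Camk2d* probes overlapped between the groups and differed by 0.18, 0.07 and −0.05. *Rcan1*, *Wwtr1* and *Camk2d* are expressed in other heart cells as well as in cardiomyocytes. The fibroblast list was lower in the same arrays, and its part in these differences was not tested.

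The 3 partner probes with a higher mean at that threshold were of homeobox genes. *Hopx*, a homeodomain-only protein that works with GATA4 and represses SRF, read 11.94, 13.07 and 13.08 with NEXN-WT against 13.61, 13.33 and 13.55 with NEXN-S437E. The groups did not overlap, and the difference of 0.80 (unadjusted p = 0.0346, adjusted p = 0.285, limma) was 0.42 without NEXN-WT 1. *Irx1* differed by 0.84 (unadjusted p = 0.0237) and *Irx3*, an Iroquois factor of the conduction system, by 0.31 (unadjusted p = 0.0394), both also without overlap, and by 0.48 and 0.26 without NEXN-WT 1 (unadjusted p = 0.0108 and 0.0579).

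Among the 12 tested probes of corepressors and class IIa deacetylases, none reached the unadjusted threshold in either direction, beside 8.12% lower and 7.65% higher of all tested probes, so that few would be found in a list of this size at the background share. *Hdac5* A_55_P1983006 read 11.63, 11.88 and 11.73 with NEXN-WT against 11.70, 11.71 and 11.74 with NEXN-S437E, a difference of −0.03 with a 95% interval from −0.33 to 0.27 that became 0.12 when the arrays were scaled by their 75th percentile. *Zfpm2*, the GATA4 cofactor FOG2, differed by 0.05 and *Srf* by −0.08, and their groups overlapped. *Gata5*, *Myocd*, *Tbx3*, *Irx5* and *Tead1* probes that were tested also overlapped between the groups. *Hand1*, *Mef2b* and *Hey2* had no probe well above background on any array.

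**Figure D4:**
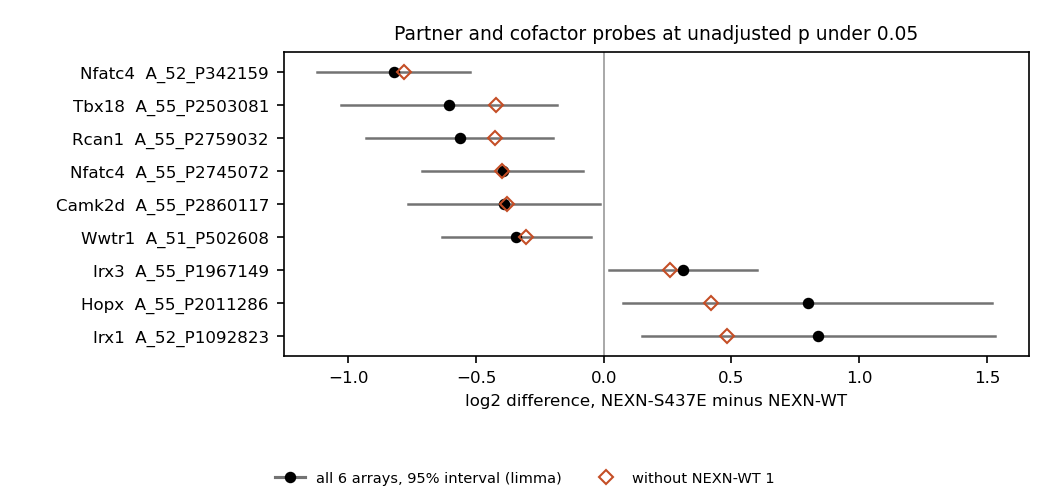
Difference of the group means, NEXN-S437E minus NEXN-WT, in log2 units (horizontal axis) for the 9 of 70 tested partner and cofactor probes with an unadjusted p under 0.05, with the 95% interval from limma (bars) and the difference without NEXN-WT 1 (open diamonds). The *Nfatc4* probe A_52_P342159 has the lowest value, −0.82, and *Irx1* the highest, 0.84.

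Among the factor, partner and target lists, the largest differences lay among genes known as targets of the 10 factors. The list held 37 genes on the array with 55 tested probes of 34 genes, of which 10 (18.2%) were lower and 5 (9.09%) higher at an unadjusted p under 0.05, beside 8.12% and 7.65% of all tested probes. The lower share was above that background and the higher one close to it. The list was chosen with earlier results of these data known, so the larger lower share is no test of the targets as a set. Past the adjusted threshold was 1 target probe, beside 0.122% of all tested probes. Several of these genes had 2 probes, so the probes are not independent. The natriuretic peptide genes, which GATA4, NKX2-5, TBX5 and MEF2 are known to act on, were lower at all 4 of their probes without overlap, beside 11.7% of all tested probes, although 1 *Nppb* probe turned to 0.03 when the arrays were scaled by the 75th percentile of all probes. *Nppa* fell at the probe A_52_P580582, on chromosome 4 of mm9 from 147376024 to 147376083, from 16.68, 16.00 and 16.12 on the NEXN-WT arrays to 14.72, 14.29 and 14.50 on the NEXN-S437E arrays. Every NEXN-S437E value was more than a log2 unit below the lowest NEXN-WT value. The difference was −1.76 (standard error 0.21, adjusted p = 0.0488, limma), a 3.39-fold lower mean, and −1.55 without NEXN-WT 1. Its adjusted p was 0.0854 with the replicate number as a block and 0.200 with the slide row as a block, where the difference was −1.54 and set NEXN-S437E 1 alone against the NEXN-WT arrays. It was 0.0297 without NEXN-WT 1 and between 0.0723 and 0.200 without any other single array. The second *Nppa* probe, A_55_P2745418, differed by −2.31 (adjusted p = 0.0736).

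*Nppb* A_51_P426195 read 14.51, 13.91 and 14.31 with NEXN-WT against 12.95, 13.32 and 13.32 with NEXN-S437E, a difference of −1.05 (standard error 0.20, adjusted p = 0.126, limma). The second *Nppb* probe, A_66_P125089, differed by only −0.25 (unadjusted p = 0.136), so the probes of this gene disagree in size. The atrial marker *Myl4*, which the atrial myocardium shares with *Nppa*, differed by −0.54 and −0.68 at its 2 tested probes (unadjusted p = 0.0179 and 0.0218). Without NEXN-WT 1 the *Myl4* differences were −0.39 and −0.45. With 1 array left out, their unadjusted p reached 0.0682 and 0.0746 (limma). *Bmp10* was at background. *Myl7* was well above background on 2 arrays of each group, and *Sln* on 2 NEXN-WT arrays and 1 NEXN-S437E array. The part of atrial tissue in these differences was not tested.

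The promoters of *Nppa* and *Nppb* are shown because the factors are known to act on them and *Nppa* held the target probe past the adjusted threshold, and that of *Tbx20* because 2 of its probes did not overlap between the groups. Each line holds the 250 bases before the start of the gene, 5′ to 3′ on the strand of the gene, from RefSeq on GRCm38.p6. Capitals mark matches on either strand to 4 motifs. The GATA motif was read as AGATAA, and in its other form it was read as TGATAA. The motif of NKX2-5 was read as AAGTG, and the motif of the T-box factors as AGGTGT. The MEF2 motif was its published consensus, and no motifs overlapped in these promoters.
Nppa promoter, chr4:148000472-148000721, plus strand: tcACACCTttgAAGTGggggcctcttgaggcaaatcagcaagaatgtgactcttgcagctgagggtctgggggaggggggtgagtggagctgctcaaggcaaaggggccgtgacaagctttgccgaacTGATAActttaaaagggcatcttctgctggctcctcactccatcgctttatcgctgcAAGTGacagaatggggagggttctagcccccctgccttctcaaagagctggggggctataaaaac
Nppb promoter, chr4:147985650-147985899, plus strand: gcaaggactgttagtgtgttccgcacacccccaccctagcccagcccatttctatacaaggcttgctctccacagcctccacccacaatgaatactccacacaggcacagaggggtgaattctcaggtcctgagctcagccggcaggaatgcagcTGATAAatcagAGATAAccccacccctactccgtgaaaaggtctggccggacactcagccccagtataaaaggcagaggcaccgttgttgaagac
Tbx20 promoter, chr9:24774304-24774553, minus strand: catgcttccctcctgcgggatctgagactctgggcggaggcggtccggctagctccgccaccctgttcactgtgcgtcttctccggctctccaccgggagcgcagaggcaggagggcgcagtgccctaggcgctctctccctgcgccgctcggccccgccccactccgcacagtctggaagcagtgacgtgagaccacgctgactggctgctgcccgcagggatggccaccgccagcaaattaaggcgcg
The *Nppa* promoter held 1 GATA match, from 122 to 117 bases before the start, 2 NKX2-5 matches, from 239 to 235 and from 65 to 61, and 1 T-box match on the opposite strand, from 248 to 243. The *Nppb* promoter held 2 GATA matches, from 95 to 90 and from 84 to 79, and the *Tbx20* promoter none of the 4 motifs. Of the 32851 promoters in the table, 16.6% held a GATA match, 40.7% an NKX2-5 match, 11.8% a T-box match and 2.92% a MEF2 match. A match is a match of letters and not a measured binding site. Of the 10 factors, 7 have a promoter in the table, and *Gata4*, *Gata6* and *Tbx5* were not matched.

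The myosin and thin filament genes differed in both directions. *Myh7*, the slow myosin heavy chain that MEF2 and TEAD factors act on, read 15.53, 13.53 and 14.23 at A_55_P2093232 with NEXN-WT against 12.02, 11.48 and 12.03 with NEXN-S437E. The groups were apart by more than a log2 unit, although the NEXN-WT values were widely spread. The difference was −2.58 (standard error 0.47, unadjusted p = 0.000743, adjusted p = 0.126, limma) and −2.03 without NEXN-WT 1. *Myh6*, the fast heavy chain of the adult mouse ventricle, had a higher mean by 0.56 at A_55_P2140453 (unadjusted p = 0.0481), which was 0.31 without NEXN-WT 1 (unadjusted p = 0.0997), and by 0.20 at A_55_P2173952 (unadjusted p = 0.244). The thin filament genes *Tnnt2* and *Tnni3*, which were named after their values were seen, had higher means by 0.71 and 0.34 at 1 probe each (unadjusted p = 0.0188 and 0.0369), and by 0.53 and 0.34 without NEXN-WT 1 (unadjusted p = 0.0562 and 0.0467). The other tested probe of each gene, *Tnnt2* A_51_P338262 and *Tnni3* A_55_P2502861, differed by 0.17 and 0.20 (unadjusted p = 0.33 and 0.22). *Actc1* differed by −0.17 with overlap, and by 0.23 under the 75th percentile of all probes.

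*Id2*, an inhibitor of basic helix-loop-helix factors that acts downstream of TBX5 and NKX2-5 in the conduction system, was lower at both probes. A_52_P94071 read 6.26, 6.24 and 5.97 with NEXN-WT against 5.18, 5.36 and 4.83 with NEXN-S437E, a difference of −1.03 (unadjusted p = 0.000529, adjusted p = 0.119, limma), and A_52_P240542 differed by −1.07. *Ankrd1*, a stretch-responsive cofactor that GATA4 activates, differed by −0.93 (standard error 0.29, unadjusted p = 0.0148), and by −0.59 without NEXN-WT 1. *Corin*, the protease that activates atrial natriuretic peptide, had higher means by 0.68 and 0.36 at its 2 probes (unadjusted p = 0.00343 and 0.0200). *Edn1*, which encodes endothelin and was named after its values were seen, differed by −0.67 (unadjusted p = 0.0317), and by −0.44 without NEXN-WT 1 (unadjusted p = 0.0825).

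The conduction and ion handling genes include many that TBX5, NKX2-5 and TBX20 are known to act on. None of their 18 tested probes reached an unadjusted p under 0.05, beside 8.12% lower and 7.65% higher of all tested probes, a background that amounts to few probes in a list of this size. *Gja5*, the connexin of atrial and conduction tissue, differed by −0.23 (95% interval from −0.56 to 0.09), and the tested *Atp2a2* probes overlapped between the groups as well.

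**Figure D5:**
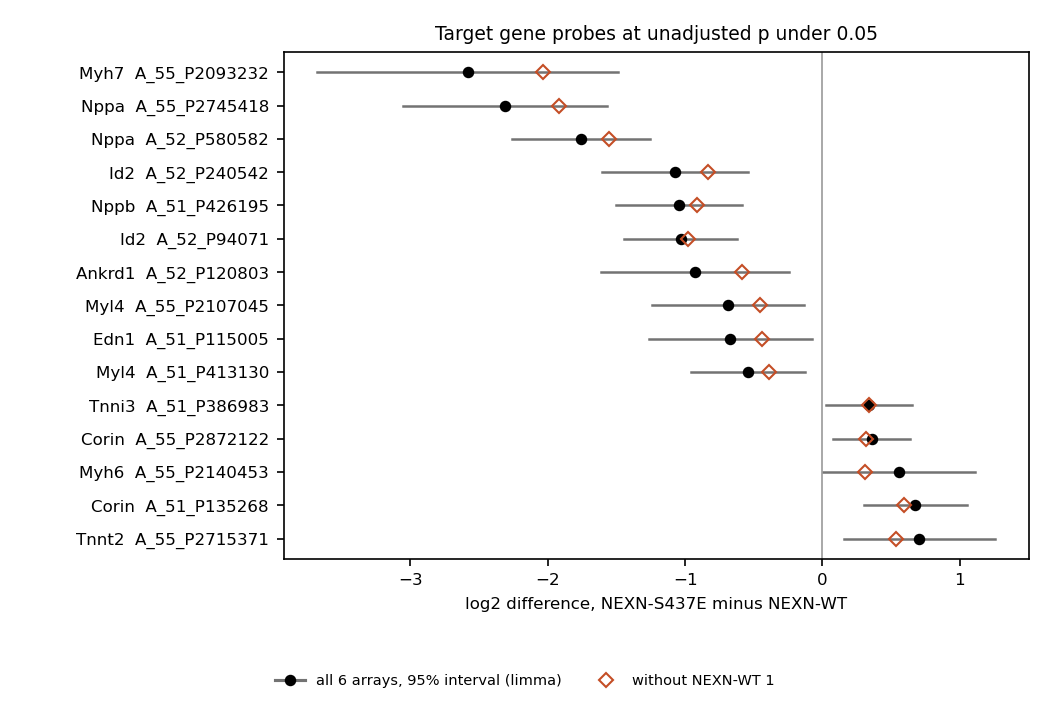
Difference of the group means, NEXN-S437E minus NEXN-WT, in log2 units (horizontal axis) for the 15 of 55 tested target probes with an unadjusted p under 0.05, with the 95% interval from limma (bars) and the difference without NEXN-WT 1 (open diamonds). *Myh7* (−2.58), *Nppa* (−2.31 and −1.76), *Id2* and *Nppb* lie at −1.03 or below, and the 5 probes with a higher mean lie between 0.34 and 0.71.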

How the data were processed

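Myocardial RNA of 6 mice was labelled with Cy3 and hybridised to Agilent SurePrint G3 Mouse GE v2 8x60K arrays (design 074809), all on 1 slide and in 1 scan, and extracted by the authors with Agilent Feature Extraction 10.7.1.1. The deposited array files hold background-subtracted intensity values on a linear scale. The authors also deposited a table of log2 values whose 6 columns have identical distributions, as quantile normalization leaves them, and these deposited log2 values were analysed here. Groups and replicate numbers came from the sample labels. A probe was tested if every array of either group read it well above background. The groups were then compared in R 4.3.3 by limma 3.58.1, using lmFit and eBayes with two-sided tests, with Benjamini-Hochberg adjustment over all 22998 tested probes and thresholds of 0.05. Quantile normalization forces equal distributions, so each difference is relative to the whole array. Precision is limited by 3 arrays per group, and p-values measure the spread between these animals. Probe coordinates are those deposited, on mm9, and whether a probe lies in an exon, an intron or a UTR was not determined. Promoter sequences came from RefSeq.

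Named were all probes of the 10 factors and fixed genes of the partner and target lists, with up to 5 further probes of smallest p from each. Some genes of these lists are not reported here. The members and lists were chosen with earlier results of these data known. The alternatives were 2 scalings by the 75th percentile, normexp correction (offset 50) with quantile normalization, no filter or a filter on all 6 arrays, the methods' unpaired test, a replicate or slide row block, an intensity trend, array weights, and each array left out. Figures were drawn with matplotlib 3.10.9.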

Additional observations from a re-analysis of the deposited data

How the results depend on the processing

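Of the 19 factor probes, 2 had an unadjusted p under 0.05 with the deposited values, both lower. The count was 1 without the filter on dim probes (*Tbx20* A_51_P427619), 0 with the methods' unpaired test and 4 with array weights. With the slide row as a block it was 1, *Mef2c* A_55_P2730921, which NEXN-S437E 1 did not read well above background. Row 2 held only NEXN-S437E arrays, so every difference under this block sets NEXN-S437E 1 alone against the 3 NEXN-WT arrays and assumes that it varies like the others. The *Tbx20* probes lost the call there at differences of −0.33 (A_51_P427619) and −0.72 (A_52_P429876). The count ranged from 0 to 3 over the arrays left out. No factor probe passed the adjusted threshold in any alternative, so the adjusted count was 0 throughout. Over all 22998 tested probes, 3628 had an unadjusted p under 0.05 with the deposited values, 2930 with the unpaired test and 5986 with array weights. The number was 3934 with the 75th percentile of all probes and 2296 to 4339 with an array left out. Without the filter it was 5309 of 56605. Past the adjusted threshold were 28 with the deposited values, 48 with the intensity trend and 1217 with array weights. The 2 scalings by the 75th percentile gave 39 and 34. Among the 70 tested partner probes, the count at the unadjusted threshold was 9 with the deposited values, 4 with the slide row block, 17 with array weights, where 1 passed the adjusted threshold, and 5 to 13 with an array left out. Among the 55 tested target probes it was 15 with the deposited values, 24 with the 75th percentile of all probes, 14 of them higher, 9 with the slide row block, and 10 to 15 with an array left out. The 1 target probe past the adjusted threshold became 2 under each 75th percentile scaling and the intensity trend and 7 with array weights. It became 0 without the filter, with the filter on all 6 arrays, with the methods' unpaired test and with either block, and ranged from 0 to 2 over the arrays left out.

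Small differences of the factors changed sign. With array weights, *Gata4* A_55_P2028894 was −0.21, *Gata6* A_55_P2732106 0.16, *Nkx2-5* −0.0525, *Mef2a* A_55_P2733817 0.00357, *Mef2d* A_51_P394676 −0.0926 and *Irx4* −0.22. With the slide row block, *Gata6* A_55_P2806214 was −0.0932, *Tbx20* A_55_P2162503 0.12, *Mef2c* A_55_P2155620 0.0643 and *Hand2* −0.33. *Mef2a* A_55_P2733817 was 0.0553 with the 75th percentile of all probes, *Irx4* −0.000543 with that of detected probes, and *Mef2c* A_55_P2155620 0.0134 with normexp. Over the arrays left out, the differences ranged from −0.16 to 0.28 for *Gata4* A_55_P2028894, −0.40 to 0.11 for *Gata6* A_55_P2732106, −0.00492 to 0.47 for *Nkx2-5*, −0.0858 to 0.00499 for *Mef2a* A_55_P2733817, −0.19 to 0.0670 for *Mef2c* A_55_P2155620, −0.0621 to 0.19 for *Mef2d* A_51_P394676 and −0.27 to 0.23 for *Irx4*. The cause was not tested. Among the other named genes, signs turned with the 75th percentile of all probes, which moved the median of all tested probes to 0.0832: *Nppb* A_66_P125089 to 0.0312, *Actc1* to 0.23, *Hdac5* to 0.12 and *Srf* to 0.00405. With that of detected probes, *Actc1* was 0.15 and *Hdac5* 0.0443. *Zfpm2* was −0.0433 with normexp. With the slide row block, *Srf* was 0.11. With an array left out, they ranged from −0.28 to 0.0335 for *Srf*, −0.0255 to 0.17 for *Zfpm2* and −0.0904 to 0.0355 for *Hdac5*. The partner and target probes at an unadjusted p under 0.05 kept their sign in all alternatives.

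Same-numbered arrays did not deviate together (correlations −0.143, −0.0296 and −0.165), so no sign was seen that the numbers pair the samples. Deviations from the mean of so few arrays per group cannot decide whether they do. With the replicate number as a block, 2 factor probes remained at the unadjusted threshold and 0 past the adjusted one, beside 3023 and 12 of all tested probes.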
